A study of Mus musculus with 16 samples.

Results

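The genes described here are 10 mouse genes of antibody production: the heavy chain constant genes *Ighm*, *Ighd*, *Ighg1*, *Ighg2b*, *Ighg2c*, *Ighg3* and *Igha*, and the plasma cell genes *Jchain*, *Prdm1* and *Xbp1*. They were chosen by symbol, and all 10 were found among the 54838 genes of the count table. All 10 passed the filter on low counts. RNA was sequenced from spleen of C57BL/6 mice in 16 samples, 8 of whole spleen and 8 of a size-selected fraction, each fraction with 4 males and 4 females. The size-selected samples hold what a strainer retained from dissociated spleen after red blood cell lysis, and their source is labelled Spleen Glia. No treatment, genetic change or age is given, and the labels do not describe how whole spleen was prepared. Each fraction has 1 sample of each of the numbers 407, 408, 427, 435, 436, 445, 447 and 460, and samples are named by that number below. Nothing in the labels says how many animals stand behind a number, so p-values measure the spread between these samples only.

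A B cell first joins a rearranged variable region to the *Ighm* constant region, and through alternative splicing of one long transcript also to *Ighd*, and displays both on its surface as IgM and IgD. Class switch recombination later deletes the DNA in between and puts the same variable region in front of an IgG, IgE or IgA constant gene. Differentiation into a plasma cell is driven by *Prdm1* (Blimp-1) and *Xbp1*, which shut down the B cell programme and expand the secretory machinery, while *Jchain* encodes the joining chain that links IgM pentamers and IgA dimers. The spleen holds resting follicular and marginal zone B cells as well as plasmablasts and plasma cells.

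The heavy chain genes lie in one cluster on the minus strand of chromosome 12 (GENCODE M21 on GRCm38, 1-based), in the order of transcription *Ighm* at chr12:113418558-113422730, *Ighd* at chr12:113406604-113416324, *Ighg3* at chr12:113356224-113361232, *Ighg1* at chr12:113325240-113330523, *Ighg2b* at chr12:113302965-113307933, *Ighg2c* at chr12:113285325-113288932 and *Igha* at chr12:113254830-113260236. *Jchain* is at chr5:88519809-88527891 on the minus strand, *Prdm1* at chr10:44437177-44528501 on the minus strand and *Xbp1* at chr11:5520659-5525893 on the plus strand.

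The 4 IgG genes are close copies, which bears on how well their reads can be told apart. The shortest transcript of each gene was aligned, and each pair was compared over the columns without a gap in either gene. *Ighg2b* and *Ighg2c* were identical at 86.41% of these bases, and the other 5 pairs at 73.71% to 75.88%. Of the 1048 columns without gaps in any of the 4 genes, 60.97% were identical in all 4. The longest run that *Ighg2b* and *Ighg2c* share is 78 coding bases of exon 3, at chr12:113306869-113306946 and chr12:113287869-113287946, and is shown because a read inside it fits both genes. *Ighg3* and *Ighg2b* share a longer run, of 88 bases, and the other pairs runs of 37 to 59 bases. The 78-base run is printed 5′ to 3′ on the minus strand:
Ighg2b and Ighg2c: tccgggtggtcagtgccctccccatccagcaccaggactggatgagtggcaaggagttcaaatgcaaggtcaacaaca

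By contrast, the 60 coding bases of exon 4 below were the stretch of that length with the most differences between the 4 genes. Capitals mark the 36 positions at which they are not all alike. The windows are at chr12:113359722-113359781 for *Ighg3*, chr12:113329033-113329092 for *Ighg1*, chr12:113306446-113306505 for *Ighg2b* and chr12:113287446-113287505 for *Ighg2c*, again 5′ to 3′ on the minus strand.
Ighg3: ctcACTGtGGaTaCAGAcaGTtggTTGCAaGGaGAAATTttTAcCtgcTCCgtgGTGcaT
Ighg1: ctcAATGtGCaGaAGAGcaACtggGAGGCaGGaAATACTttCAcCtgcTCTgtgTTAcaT
Ighg2b: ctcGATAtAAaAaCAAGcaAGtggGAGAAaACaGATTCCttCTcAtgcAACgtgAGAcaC
Ighg2c: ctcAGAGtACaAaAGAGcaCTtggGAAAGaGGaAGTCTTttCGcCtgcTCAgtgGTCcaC

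Of all 50-base windows of the longest transcript of each gene, 6.009% in *Ighg2c*, 4.331% in *Ighg2b*, 1.649% in *Ighg3* and 0.411% in *Ighg1* also occurred in another heavy chain gene, and no window did in *Ighm*, *Ighd* or *Igha*. No 100-base window was shared by any of them. The read length is not given in the sources used here, so the IgG values carry some uncertainty about which copy a read came from.

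Sample totals ran from 13119992 to 19944440 estimated counts in the size-selected fraction and from 12153770 to 16282454 in whole spleen. Between the fractions 67.9% of the 14510 genes tested differed, of which the rises made up 37.5% of genes and the falls 30.4% (edgeR quasi-likelihood F test, Benjamini-Hochberg adjusted p under 0.05), with a median log2 fold change over all genes of 0.05. Genes of fibroblasts and smooth muscle (10 of 10), endothelium (8 of 8) and peripheral glia (8 of 8 tested, of 10) were higher, with list medians of 7.02, 4.37 and 7.16. Of 10 macrophage genes 6 were higher and none lower, with a median of 0.57, and of 10 T cell genes 9 were lower, with a median of -1.62. Neutrophil genes were lower in 7 of 8 cases, erythroid genes in 4 of 8 (2 of 8 once constants in the size-selected values, described with *Prdm1* below, were divided out), and of 9 dendritic cell genes 3 were higher and 4 lower. Of 14 B cell genes 13 were lower and none higher, with a median of -1.09 (-0.95 without those constants, which 4 of the 14 carry). Their summed level was 1398 to 5075 CPM (counts scaled to the size of the library) in the size-selected samples and 7717 to 9578 in whole spleen, and no B cell gene was at 0 in any sample. The peripheral glia genes summed to 78.4 to 640 CPM in the size-selected samples, less than the B cell genes in every one of them, so the samples labelled Spleen Glia also held lymphoid RNA. Sample 427 of the size-selected fraction had the lowest sums of B cell and T cell genes and the highest sums of macrophage, fibroblast and endothelial genes.

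Antibody genes were mostly lower in the size-selected fraction, by 1.88 to 2.97 times among those that passed the test. Of the 10 genes, 6 were lower (*Ighm*, *Ighd*, *Ighg1*, *Ighg3*, *Igha* and *Jchain*) against 30.4% of all genes tested, *Prdm1* was higher, and *Ighg2b*, *Ighg2c* and *Xbp1* did not pass the threshold. The 7 heavy chain genes had a median log2 fold change of -1.19. In bulk RNA, fewer cells of a type and less RNA per cell cannot be told apart. With the sample number as a block, *Ighg2b* and *Ighg2c* also passed, which made 8 genes lower against 31.3% of all genes in that fit. Without number 427 and with no block, 5 were lower. The 3 genes whose fractions did not overlap in level were *Ighd* and *Igha*, lower, and *Prdm1*, higher, and such a gap was found in 11.6% of all genes tested in the lower direction and in 23.3% in the higher one.

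**Figure D1:**
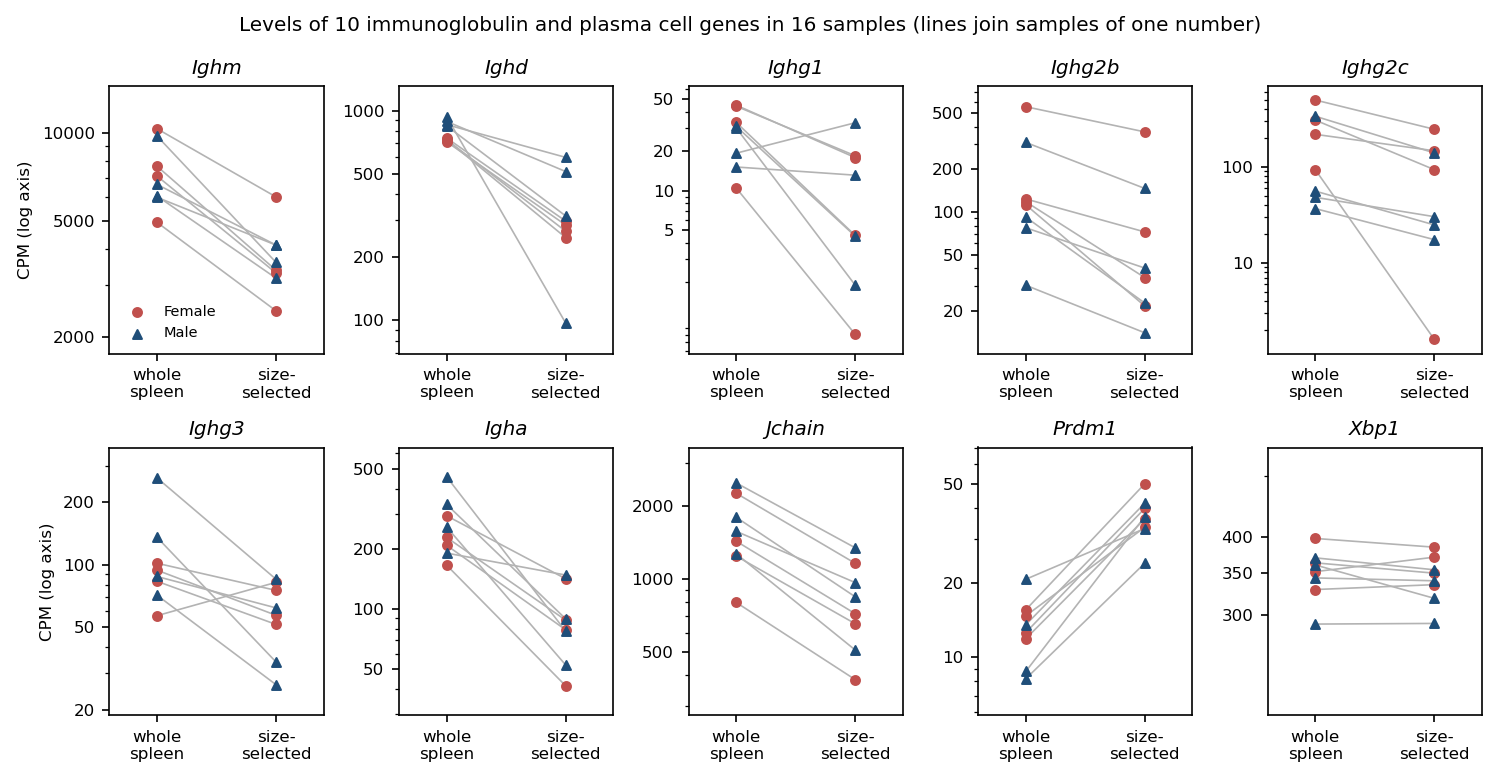
Level of each gene (CPM, logarithmic axis with its own range per panel) in whole spleen and size-selected samples, with circles for females, triangles for males and a line joining the samples of one number. The lines of *Ighm*, *Ighd*, *Ighg2b*, *Ighg2c*, *Igha* and *Jchain* fall in all 8 numbers, those of *Prdm1* rise in all 8, and *Xbp1* stays between 290 and 397 CPM.

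*Ighm* encodes the constant region of IgM, the first isotype that a B cell makes. Its level in whole spleen was lowest at 4932, with a median of 6875 and a highest value of 10311 CPM, and in the size-selected samples the lowest, median and highest values were 2456, 3490 and 6024 CPM. Size-selected sample 436 was the highest of its fraction and the only one inside the whole spleen range, and the other 7 lay below every whole spleen sample. It was 1.94-fold lower, or -0.95 in log2 (SE 0.18, edgeR adjusted p = 9.99e-05), and *Ighm* was lower in 8 of 8 numbers.

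*Ighd*, the constant gene of IgD and typical of mature B cells that have not switched, was lower as well. Whole spleen held it in a narrow band, from 713 through a median of 796 to 939 CPM, whereas the size-selected samples ran from 97.3 through 292 to 600 CPM. Every size-selected sample was below every whole spleen sample, and sample 427 was the lowest of all while its whole spleen partner was the highest. It fell by 1.30 on the log2 scale (SE 0.24, edgeR adjusted p = 0.000119), and without number 427 it was -1.12 (adjusted p = 3.41e-05).

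Relative to *Ighm*, there were 11.6 ± 2.90 *Ighd* counts per 100 *Ighm* counts in whole spleen and 8.96 ± 3.89 in the size-selected samples (SD, n = 8), with a lower ratio in the size-selected sample of 7 of 8 numbers. The ranges overlapped widely, from 7.07 to 14.8 in whole spleen and from 2.71 in sample 427 to 14.6 in sample 435. This ratio was not tested.

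*Igha*, the constant gene of IgA, had the largest fall of the heavy chain genes in the fit with no block. It ran from 166 through a median of 243 to 459 CPM in whole spleen and from 41.4 through 83.6 to 148 CPM in the size-selected samples. The fractions did not overlap, and all 8 numbers were lower, by 2.97-fold, which is -1.57 on the log2 scale (SE 0.25, edgeR adjusted p = 2.31e-05). The size of the fall varied from -2.56 in number 427 to -0.36 in number 408.

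The 4 IgG genes were much scarcer than *Ighm* and more uneven between samples, with coefficients of variation of 36.3% to 134% within a fraction against 25.5% and 27.98% for *Ighm*. *Ighg3*, an isotype of responses to polysaccharides, was between 56.9 and 262 CPM in whole spleen with a median of 91.0, and between 26.5 and 85.2 CPM with a median of 59.6 in the size-selected samples. The ranges overlapped, 7 of 8 numbers were lower, and number 460 was higher. Its log2 fold change was -0.91 (SE 0.29, edgeR adjusted p = 0.00964), and -0.70 (adjusted p = 0.0129) without number 427, whose whole spleen sample held the 262 CPM.

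*Ighg1*, an isotype linked to responses with interleukin-4, was the least abundant heavy chain gene of the 7. Its lowest, median and highest levels were 10.5, 30.5 and 44.9 CPM in whole spleen, and 0.80, 8.84 and 32.9 CPM in the size-selected samples, where the lowest value rested on 11 counts. Samples 407, 427, 445 and 460 of the size-selected fraction were below every whole spleen sample, and number 435 went the other way. Its log2 difference of -1.27 (SE 0.53, edgeR adjusted p = 0.0421) was close to the threshold. It was no longer past it without number 407, 427, 436, 447 or 460 (adjusted p from 0.0678 to 0.103) or without whole spleen sample 427 alone (0.055), with scaling to library totals (0.0751), with DESeq2 (0.0509) or with sex as a covariate (0.0509). With the number as a block it was -1.79 (SE 0.48, adjusted p = 0.00535).

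*Ighg2b* and *Ighg2c*, the closest pair by sequence, were the most uneven between samples. *Ighg2b* ran from 30.4 through a median of 115 to 553 CPM in whole spleen and from 14.0 through 37.3 to 367 CPM in the size-selected samples. Number 436 was highest and number 408 lowest in both fractions, and every number was lower in the size-selected sample. Between groups, the log2 fold change was -0.98 (SE 0.66, edgeR adjusted p = 0.195). With the number as a block it was -1.32 (SE 0.19, adjusted p = 4.95e-05), and without number 436 and with no block it was -1.29 (adjusted p = 0.0344).

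*Ighg2c*, the C57BL/6 counterpart of the IgG2a gene of other strains, ran from 36.6 through a median of 155 to 496 CPM in whole spleen and from 1.58 through 61.7 to 246 CPM in the size-selected samples. All 8 numbers were lower in the size-selected sample, and number 460 by far the most, from 93.1 CPM (1452 counts) to 1.58 CPM (33 counts). Its log2 fold change was -1.19 (SE 0.71, edgeR adjusted p = 0.149) without the block and -1.44 (SE 0.42, adjusted p = 0.00869) with it. In number 460, *Ighg1* went from 33.2 to 4.56 CPM and *Ighg2b* from 118 to 34.4 CPM, while *Ighg3* was higher in the size-selected sample.

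Switched isotypes (IgG and IgA together) made up 8.43 ± 2.24% of the counts of the 7 heavy chain genes and *Ighe* in whole spleen and 7.42 ± 2.95% in the size-selected samples (SD, n = 8). The ranges, 5.12% to 11.6% and 3.55% to 10.98%, overlapped almost fully, and the share was lower in the size-selected sample of 6 of 8 numbers. *Ighm* took 82.0 ± 1.72% and 84.99 ± 1.89% (SD, n = 8), with a higher share in the size-selected sample of 7 of 8 numbers. The make-up varied between numbers. *Ighg2b* was 4.43% of heavy chain counts in whole spleen and 5.19% in the size-selected sample of number 436, and 0.42% and 0.29% in number 408. *Ighg2c* in number 460 was 1.49% in whole spleen and 0.053% in the size-selected sample. These shares weight genes by transcript length as well as by abundance, and they were not tested. Per kilobase of exon, the switched share was 7.52 ± 2.36% and 6.67 ± 2.99% (SD, n = 8).

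**Figure D2:**
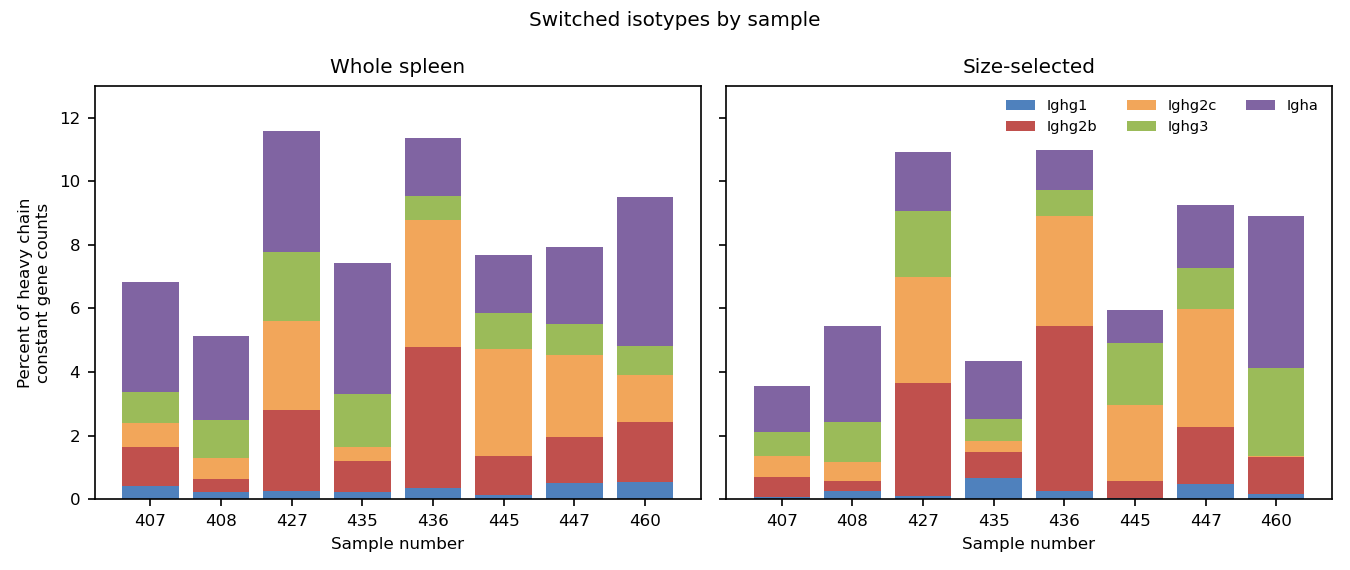
Share of each switched isotype gene in the counts of all heavy chain constant genes (percent, stacked bars from 0), by sample number, for whole spleen on the left and the size-selected fraction on the right. Numbers 427 and 436 have the tallest bars in both fractions, with totals of 11.6% and 11.4% in whole spleen and 10.93% and 10.98% in the size-selected samples, and the *Ighg2c* segment of number 460 is nearly missing on the right.

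*Jchain* was lower in the size-selected sample of every number, at 0.401 to 0.614 times the whole spleen level. It ran from 799 through a median of 1501 to 2487 CPM in whole spleen and from 384 through 781 to 1343 CPM in the size-selected samples. The ranges overlapped, with 4 size-selected samples below every whole spleen sample, and numbers 427 and 460 were the highest and the lowest in both fractions. The log2 fold change was -0.97 (SE 0.25, edgeR adjusted p = 0.00219), and within numbers it lay between -1.32 and -0.70 with an SD of 0.18. With the block, its SE was 0.08. Per 100 *Ighm* counts there were 21.7 ± 4.11 *Jchain* counts in whole spleen and 22.05 ± 8.06 in the size-selected samples (SD, n = 8), lower in 4 of 8 numbers.

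*Prdm1*, the gene of the transcription factor Blimp-1, was the one gene of the 10 to rise. Blimp-1 is made in plasma cells and also in some T cells and myeloid cells. Its levels were 8.18, 13.0 and 20.6 CPM (lowest, median, highest) in whole spleen and 23.9, 36.5 and 50.03 CPM in the size-selected samples. The fractions did not overlap, and *Prdm1* was higher in 8 of 8 numbers. The log2 fold change was 1.48 (SE 0.18, edgeR adjusted p = 6.98e-07), a 2.79-fold rise. The deposited size-selected values of *Prdm1* are estimated counts multiplied by a constant of 0.659 to 0.789 that differs by sample, and dividing it out, which gives restored counts, led to 1.89 (SE 0.18, adjusted p = 3.79e-08). In the same comparison 37.5% of all genes tested rose and 30.4% fell. Of the lists, 10 of 10 fibroblast and smooth muscle genes, 8 of 8 endothelial genes and 8 of 8 peripheral glia genes tested rose. Of 10 macrophage genes 6 rose and 4 did not pass the test. Of 10 T cell genes 9 fell, of 8 neutrophil genes 7 fell, and of 9 dendritic cell genes 3 rose and 4 fell. Of 15 other plasma cell genes 11 fell and 2 rose. Summed macrophage genes ran from 3496 to 8217 CPM in the size-selected samples and from 1980 to 3496 CPM in whole spleen, so the lowest size-selected and the highest whole spleen sample were level. The fibroblast and smooth muscle genes summed to 1508 to 5554 against 9.58 to 104 CPM, and the endothelial genes to 949 to 2463 against 97.4 to 261 CPM. Whether any of these cell types carried the *Prdm1* RNA was not tested.

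*Xbp1*, which encodes the transcription factor that builds up the secretory machinery and is made in many cell types, did not pass the test. It ran from 290 through a median of 356 to 397 CPM in whole spleen and from 290 through 345 to 385 CPM in the size-selected samples, and the ranges coincided. The log2 fold change was -0.03 (SE 0.08, edgeR adjusted p = 0.734), with 5 of 8 numbers lower. Its size-selected values also carry a constant, of 0.889 to 0.964, and without it the value was 0.044 (SE 0.08, adjusted p = 0.649). With library totals as the scale it was 0.090, so its sign depends on the scaling.

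Ranked by mean level per kilobase of exon, the order in whole spleen was *Ighm* (3876 ± 990 CPM per kilobase, SD, n = 8), *Jchain* (638 ± 221), *Ighd* (424 ± 46.4), *Ighg2c* (150 ± 127), *Xbp1* (108 ± 9.78), *Igha* (100.1 ± 35.5), *Ighg2b* (66.1 ± 64.3), *Ighg3* (44.5 ± 25.9), *Ighg1* (10.999 ± 4.90) and *Prdm1* (2.37 ± 0.71). The neighbours from *Xbp1* to *Ighg3* lay within each other's spread. The mean of *Xbp1* lay within 1 SD of that of *Ighg2c*, and the mean of *Ighd* within 1 SD of that of *Jchain*, but not the reverse. In the size-selected fraction *Xbp1* (106 ± 9.13) stood ahead of *Ighg2c* (65.9 ± 64.3), and *Prdm1* (6.61 ± 1.36) ahead of *Ighg1* (4.54 ± 4.26), in both cases within the spread of the IgG gene. The 7 heavy chain genes, *Ighe* and *Jchain* together took 1.01 ± 0.294% of all counts in whole spleen and 0.55 ± 0.15% in the size-selected samples (SD, n = 8), lower in 8 of 8 numbers.

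A second scale asked whether antibody genes differed from B cell genes in how they were divided between the fractions. On it, samples were scaled so that the mean log2 level of the 14 B cell genes was the same in all, which moved the median log2 fold change of all genes to 1.35 and gave calls for 84.6% of genes, 83.9% higher and 0.696% lower. The 14 B cell genes themselves ran from -1.30 (*Pax5*) to 0.66 (*Cd22*) on this scale, with 5 past the threshold above 0 and 2 below it (3 and 2 on restored counts). The 7 heavy chain genes and *Jchain* lay between -0.29 and 0.54 on this scale, and none was past the threshold. *Igha* was at -0.29 (SE 0.28, edgeR adjusted p = 0.344), *Ighd* at -0.21 (SE 0.14, adjusted p = 0.185), *Ighm* at 0.34 (SE 0.25, adjusted p = 0.207) and *Jchain* at 0.48 (SE 0.36, adjusted p = 0.216). Without number 427, *Ighm* was at 0.21, *Jchain* at 0.13, *Ighg2b* at 0.25 in place of 0.52, *Ighg2c* at 0.0012 in place of 0.27 and *Ighd* at -0.11, with no call gained. On restored counts of all numbers, *Igha* was at -0.37, *Ighd* at -0.29 (edgeR adjusted p = 0.0683), *Ighm* at 0.26 and *Jchain* at 0.40. None of the 7 heavy chain genes and *Jchain* was past the threshold there either. All 8 lay below the median of all genes on this scale. *Prdm1* was at 2.80 (SE 0.30, adjusted p = 7.65e-08), above that median, and *Xbp1* at 1.30 (SE 0.23, adjusted p = 3.14e-05), close to it. Both p-values test against 0, on a scale where 83.9% of genes were called higher. Each of these genes lay on the same side of the median on the first scale, so its side is not a separate result. With the block, *Ighg2b* turned from 0.52 to -0.10 and *Ighg2c* from 0.27 to -0.23, neither past the threshold.

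**Figure D3:**
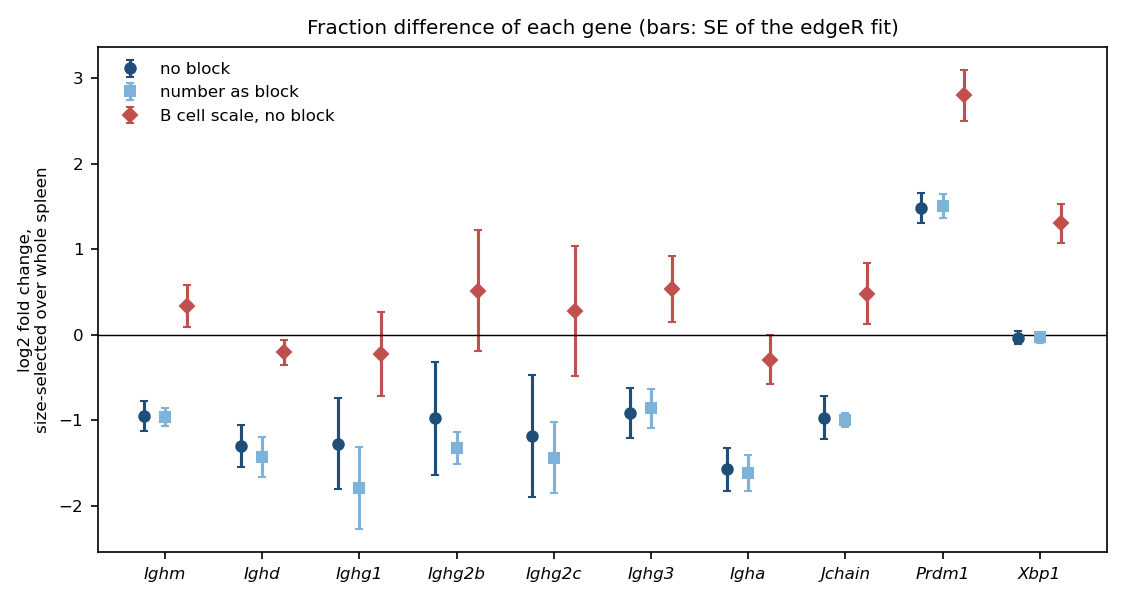
Log2 fold change of each gene, size-selected over whole spleen, with bars of 1 standard error, for the fit with no block (circles), with the number as a block (squares) and on the B cell scale (diamonds). The antibody genes and *Jchain* lie between -1.57 and -0.91 with no block and between -0.29 and 0.54 on the B cell scale, *Prdm1* is above 0 in all fits, and the bars of *Ighg2b* shrink with the block.

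The light chain constant genes were lower too. All 4 tested passed, with a median log2 fold change of -1.28, where 30.4% of all genes tested were lower. *Igkc*, the kappa chain that most mouse antibodies carry, was at 5547 to 10899 CPM in whole spleen and at 1843 to 5031 CPM in the size-selected samples, with no overlap and a log2 difference of -1.22 (SE 0.19, edgeR adjusted p = 1.18e-05). Such a gap in the lower direction was found in 11.6% of all genes tested. The lambda genes *Iglc1*, *Iglc2* and *Iglc3* had log2 fold changes of -1.33, -1.57 and -1.22 (adjusted p = 0.000285, 1.44e-08 and 2.55e-05). *Iglc4* and *Ighe*, the IgE gene, were below the filter. *Ighe* reached 75 counts in whole spleen sample 436, at most 7 in any other whole spleen sample, and at most 2 in the size-selected ones.

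Of 15 other plasma cell genes, 11 were lower and 2 higher, with a median of -0.77, where 30.4% of all genes tested were lower and 37.5% higher, with a median of 0.05. The largest falls were those of *Eaf2*, a transcription elongation factor (-1.38, SE 0.18, edgeR adjusted p = 2.58e-06), *Mzb1*, a chaperone of antibody secretion (-1.28, SE 0.14, adjusted p = 2.09e-07), *Pou2af1*, a coactivator of immunoglobulin promoters (-0.99, SE 0.18, adjusted p = 6.86e-05), and *Derl3*, a factor of endoplasmic reticulum degradation (-0.96, SE 0.21, adjusted p = 0.000488). *Sdc1*, the plasma cell surface marker CD138 that epithelial cells also carry, was the smaller of the 2 rises (0.37, SE 0.13, adjusted p = 0.0212), and *Prdx4* the larger (0.63, SE 0.15, adjusted p = 0.00136). Both were named after their values were seen. Of the 15, 5 carry a constant, and on restored counts 9 were lower and 2 higher, with *Derl3* at -0.72 (SE 0.21, edgeR adjusted p = 0.0045). *Fkbp11* (-0.53, adjusted p = 0.132) and *Ell2* (-0.03, adjusted p = 0.831) then no longer passed and are named for that reason, against -0.77 and -0.27 on the deposited counts.

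Genes of protein folding and secretion in the endoplasmic reticulum, many of them *Xbp1* targets, had no common direction. Of 15, 5 were higher, 2 lower and 8 not past the threshold, with a median of 0.11. The share that was higher was near the 37.5% of all genes tested, and the share that was lower was below their 30.4%. *Ssr4*, a subunit of the translocon-associated complex, was lower (-0.95, SE 0.09, edgeR adjusted p = 6.1e-08), as was the chaperone *Dnajb11* (-0.48, SE 0.09, adjusted p = 0.00019). *Ern1*, which encodes the IRE1 sensor that splices *Xbp1* RNA, was higher (0.74, SE 0.23, adjusted p = 0.00782), as was the chaperone *Dnajb9* (0.48, SE 0.11, adjusted p = 0.000524). Constants are carried by 10 of the 15 genes in the size-selected values. On restored counts *Ssr4* was at -0.58 (SE 0.09, edgeR adjusted p = 1.89e-05), *Dnajb11* at -0.23 (SE 0.10, adjusted p = 0.0416) and *Dnajb9* at 0.73 (SE 0.11, adjusted p = 1.34e-05), and the list had 6 higher and 2 lower with a median of 0.18.

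Among 10 genes of class switching and B cell fate, 7 were lower and 2 higher, against 30.4% and 37.5% of all genes tested, with a median of -0.92. *Cd40*, the receptor for T cell help, was lower (-1.26, SE 0.17, edgeR adjusted p = 3.62e-06), and so was *Bach2*, a repressor of *Prdm1* (-1.19, SE 0.26, adjusted p = 0.000467). *Cd40* carries constants in the size-selected values, and on restored counts it was lower by less (-0.56, SE 0.17, edgeR adjusted p = 0.00807). The list then again had 7 lower and 2 higher, with a median of -0.66. *Nfkbiz*, a nuclear regulator of NF-kappaB that is induced in many cell types, had the largest rise (2.26, SE 0.15, adjusted p = 7.31e-10).

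Of 8 receptors for antibody tested, from a list of 10, 3 were higher and 1 lower, with a median of 0.27. The share that was higher equalled the 37.5% of all genes tested, and the share that was lower was below their 30.4%. *Fcgrt*, the neonatal receptor that recycles IgG, was higher (1.57, SE 0.20, edgeR adjusted p = 1.42e-06), as were *Fcgr3*, an activating IgG receptor (1.03, SE 0.19, adjusted p = 8.49e-05), and *Fcgr2b*, the inhibitory one (0.36, SE 0.13, adjusted p = 0.0218). The call of *Fcgr2b* was lost without number 427 (adjusted p = 0.0626) and with no count filter. *Fcer2a*, the low-affinity IgE receptor of B cells, was lower (-1.37, SE 0.23, adjusted p = 3.35e-05). On restored counts *Fcgrt*, which carries constants, was at 1.95 and *Fcer2a* at -1.12 (edgeR adjusted p = 1.4e-07 and 0.000269). *Pigr* and *Fcamr* were below the filter.

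**Figure D4:**
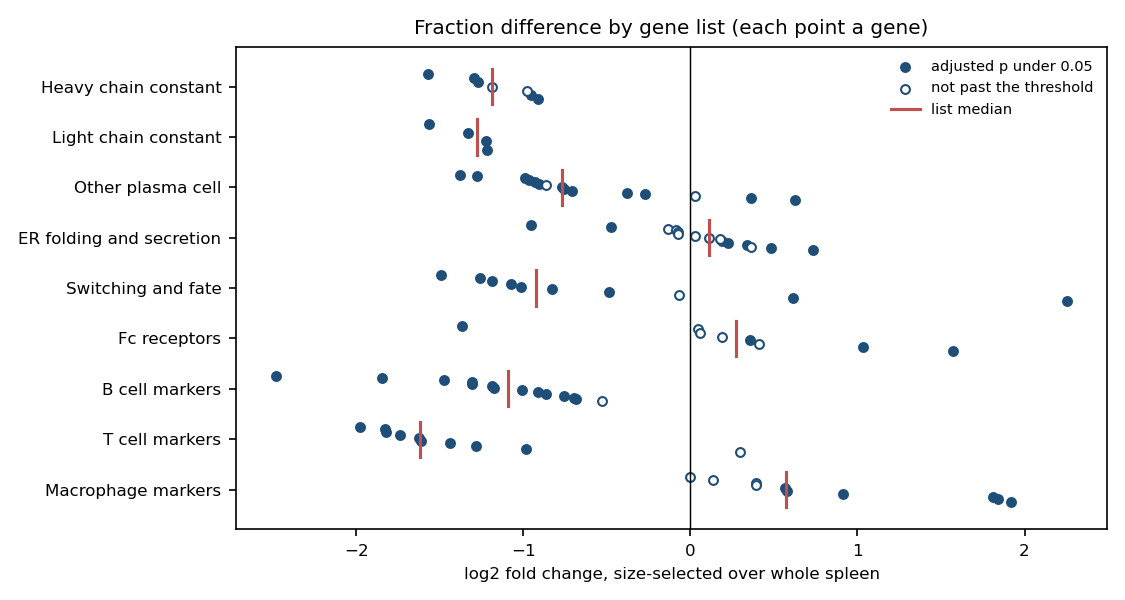
Log2 fold change of each tested gene (size-selected over whole spleen), by list, with filled points for an edgeR adjusted p under 0.05, open points for the rest and a vertical bar at the list median. The medians of the heavy chain, light chain, other plasma cell, switching, B cell and T cell lists lie between -1.62 and -0.77, and that of endoplasmic reticulum genes at 0.11.

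The genes with the most alike profiles over the 16 samples were looked for among 9286 genes, by the root mean square difference of log2 CPM after centring each gene. For *Ighm* they were *Derl3* (0.23), *Cdc45* (0.27) and *Igkc* (0.29). For *Jchain* they were the variable gene *Ighv1-26* (0.24), *Igkc* (0.24) and *Derl3* (0.36). *Ighd* was most like *Fcmr* (0.15), *Fcrla* (0.16) and *Sh2d2a* (0.16), of which *Fcmr* and *Fcrla* are in the B cell list. *Prdm1* was most like *Nfe2l1* (0.24), *Cyfip1* (0.25) and *Cnksr3* (0.26), and *Xbp1*, whose own spread was only 0.12, like *Ywhae* (0.10), *Clcn4* (0.10) and *Mapre1* (0.11). These likenesses rest on the same libraries and are a description.

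Sex was compared within each fraction, females minus males. In whole spleen 26 of 13383 genes (0.194%) passed, and none of the 10 was among them. *Ighd* came nearest, at 713 to 743 CPM in 4 females and 849 to 939 CPM in 4 males, with no overlap, which held for 4.35% of the genes tested, counting those lower in females. Its log2 difference was -0.29 (SE 0.10, edgeR unadjusted p = 0.0112, adjusted p = 0.185), and in DESeq2 it passed at -0.28 (adjusted p = 0.0463). That DESeq2 fit called 491 of 13365 genes. *Ighg2c* was higher in females by 1.21 (SE 0.65, edgeR adjusted p = 0.371), with 93.1 to 496 CPM in females and 36.6 to 336 CPM in males. The highest male value was sample 427, without which the difference was 2.58 (edgeR adjusted p = 0.0155), while without number 436 it was 0.78 (adjusted p = 0.581). The fit without number 427 called 261 of 13646 genes. *Ighg3* differed by -0.74 (SE 0.33, edgeR adjusted p = 0.303), and by -0.23 without number 427.

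In the size-selected fraction 6 of 15127 genes (0.0397%) passed for sex, again with none of the 10 among them. *Ighd* levels of females, 249 to 298 CPM, lay inside the male range of 97.3 to 600 CPM. *Ighg2c* differed by 1.23 (SE 1.03, edgeR adjusted p = 0.999), by 0.63 without number 436 and by 2.28 without number 427, with no call. *Ighg2b* differed by 1.18 (SE 0.93, edgeR adjusted p = 0.999), and by -0.35 without number 436. Of 15760 genes, 0 had a fraction difference that differed between the sexes in edgeR (744 at an unadjusted p under 0.05), against 3 in DESeq2 and 3 with the block, none of them one of the 10. The largest such value among the 10 was that of *Ighg3*, 1.09 (SE 0.54, edgeR unadjusted p = 0.0614, adjusted p = 0.9999).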

How the data were processed

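The deposited count table holds estimated counts per gene for all 16 samples, made by the authors with tools that the submitters' processing notes name without role or order (Trim Galore, STAR, RSEM and DESeq, build mm10). In the size-selected columns, 3898 genes carry values multiplied by constants, found from the values, and all 29967 such values came within 0.0001 of 2 decimals once divided (restored counts). No gene carried a constant in the whole spleen columns. The authors' deposited table of their comparison holds log2 fold changes and adjusted p-values, per the file headers. It lists 2201 genes, 0 of the 10 among them, and its lowest log2 fold change is 3.5002 and its highest adjusted p 0.009947.

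Counts as deposited were rounded and fitted in edgeR 4.0.16 (R 4.3.3) with filterByExpr (minimum count 10), TMM scaling, the quasi-likelihood F test and Benjamini-Hochberg adjustment over all genes tested, at a threshold of 0.05. CPM use TMM-scaled totals. Each standard error was taken as the log2 fold change divided by the root of its F statistic. The fraction fits used all 16 samples with group as the only term, the sex fits the 8 samples of 1 fraction, and the interaction all 16. Fits were also run on simulated data in which few genes changed and no samples were paired. Most genes differed between the fractions, so that run cannot check the scaling there. Alternatives were RLE scaling, library totals, DESeq2 1.42.0, limma-voom (limma 3.58.1), other filters, sex as a covariate, restored counts, summed B cell counts for the B cell scale, the number as a block and leaving out each number. Samples of one number deviated together (mean correlation 0.21 over 14510 genes, 0.12 to 0.38, against -0.03 for other numbers, 8 of 8 best with their own), so the numbers pair the samples. Of 54838 identifiers, 54723 were in GENCODE M21, which gave coordinates, exon lengths and transcript sequences (aligned with MAFFT 7.526). The genes and lists were chosen with earlier results of these data known. Named are the 10 genes, all light chain genes, the 4 called genes of each other list with the largest change, and the 3 most alike genes (mean log2 CPM of at least 3) of *Ighm*, *Ighd*, *Jchain*, *Prdm1* and *Xbp1*. A gene that this rule names in the list of switching and fate is not reported here.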

Additional observations from a re-analysis of the deposited data

Results flagged for a closer look

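Levels were screened for a sample far from the other 7 of its fraction in 26 groups of 8, of which chance alone flags about 1.3. Size-selected sample 436 stood above the rest for *Ighm*, at 6024 CPM, and for *Ighg2b*, at 367 CPM. Whole spleen sample 427 stood above the rest for *Ighg3*, at 262 CPM. In number 436 the whole spleen sample was also the highest of its fraction for *Ighm* and *Ighg2b*, and in number 427 the size-selected sample was also the highest of its fraction for *Ighg3*.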

How the results depend on the processing

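The median log2 fold change of all genes was 0.05, and 0.17 with library totals and 1.35 on the B cell scale. In fits that also tested other sets of genes it was 0.16 (DESeq2, 21657 genes) and 0.14 (no filter, 28235 genes), and changes are to be read against it. Across the alternatives of the fraction comparison, 5 to 8 of the 10 genes were lower and *Prdm1* higher in each. *Xbp1* changed sign, uncalled, with library totals (0.090), restored counts (0.044) and restored counts with the replicate block (0.043). On the B cell scale the block turned *Ighg2b* to -0.10 and *Ighg2c* to -0.23. In the size-selected sex comparison, *Ighg2b* turned to -0.35 without number 436, and lay between -0.35 and 2.21 when a number was left out. The block changed the fraction call of *Ighg2b* and *Ighg2c* and of no other of the 10 genes. Genes called for sex in whole spleen were 491 in DESeq2 and 273 with no filter, and from 7 to 261 when a number was left out. The 10 genes held 1 call in DESeq2 and 0 to 1 when a number was left out. For sex in the size-selected samples DESeq2 called 22 genes, and for the interaction DESeq2 called 3, the replicate block 3, and leaving out a number 0 to 1. The cause of these changes was not tested. Depth limits the scarce IgG values, down to 11 counts for *Ighg1*.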
